A study of Mus musculus with 6 samples.

Results

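The galectin family of lectins was followed in B16-F1 and D5.1G4, 2 mouse melanoma cell lines. Its 10 members here are Lgals1, Lgals2, Lgals3, Lgals4, Lgals7, Lgals8, Lgals9, Lgals12, the galectin-related gene Lgalsl and Lgals3bp. They were taken as the probes whose RefSeq accession belongs to one of these symbols, which gave 13 of the 39429 probes on the array and 10 of the 20659 genes with a probe. Lgals3bp is named for its protein's binding to galectin-3 and does not encode a galectin. RNA of each line was measured on 3 one-colour Agilent mouse arrays. Cells of both groups were untreated and had been grown for 24 h in RPMI-1640 with 10% serum, from 1000000 cells a well, to a confluence of 75 to 95%. The labels name each group by its cell line alone, with D5.1G4 as the line compared against, and the title says that these melanomas differ in how readily they form tumours.

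Galectins are proteins that bind beta-galactosides, above all N-acetyllactosamine units on glycoproteins, through a conserved carbohydrate recognition domain. Prototype members such as galectin-1 carry a single domain, tandem-repeat members such as galectin-8 and galectin-9 carry a pair, and galectin-3 joins its domain to a proline- and glycine-rich tail through which it forms multimers. They are made in the cytosol, leave the cell without a signal peptide, and outside it cross-link receptors and matrix proteins. In tumours galectin-1, galectin-3 and galectin-9 are best known for acting on T cells and on adhesion.

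In B16-F1, 4 of the 8 members that could be tested were higher than in D5.1G4 and 0 were lower. Lgals3 stood far above the rest with an 83.1-fold difference, followed by Lgals3bp (4.83-fold), Lgals9 (3.52-fold) and Lgals8 (2.78-fold). Lgals1, Lgals4, Lgals7 and Lgalsl were not called, and Lgals2 and Lgals12 were too dim for the test. Over all 18442 features tested (genes, and probes that match no gene), 15.2% were called in either direction, 6.28% as higher and 8.89% as lower in B16-F1. A call means an adjusted p of 0.05 or less and at least a 2-fold difference in limma's test of B16-F1 against D5.1G4, with 3 arrays a line. The median log2 difference was 0.72 over the 8 tested members and -0.00 over all features. Every value below is log2 signal relative to the array's own 75th percentile unless a raw intensity is named, and values of different probes are not on a common scale. In bulk RNA, fewer cells that express a gene and less RNA per cell cannot be told apart.

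By correlation across probes the arrays stood close together within a line (0.984 to 0.993) and less so between lines (0.940 to 0.956). B16-F1 replicates 1, 2 and 3 had 54.4%, 62.0% and 61.7% of spots above background, and the D5.1G4 arrays 53.4% to 53.9%. The 75th percentile signal ran from 839 to 2035 over the arrays. B16-F1 replicates 2 and 3, with the most spots above background, share a scan time (scan 1), B16-F1 replicate 1 shares one with D5.1G4 replicates 2 and 3 (scan 2), and D5.1G4 replicate 1 was scanned alone (scan 3). Only scan 2 holds both lines, so the difference of each tested member is also given within it, where 1 B16-F1 array is set against 2 D5.1G4 arrays. Adding scan as a block to the fit gives that same difference where no array is missing. Both lines kept the melanocyte profile that their label implies. All 7 markers (Mitf, Sox10, Tyr, Tyrp1, Dct, Mlana and Pmel) were above background on every array and 0 were called, although a second Tyr probe differed by 1.64 where the probe used differed by 0.78. Their summed level ran from 448 to 565 times the 75th percentile in B16-F1 and from 567 to 794 times in D5.1G4.

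The promoters of Lgals3 and Lgals9 are shown because these galectin genes were both called higher and hold the motif matches closest to their starts. Sequences are RefSeq's for GRCm38.p6, from 250 bases before to 50 after the start, 5′ to 3′ along the gene, and capitals mark motif matches.
Lgals3, chr14:47373610-47373909, plus strand: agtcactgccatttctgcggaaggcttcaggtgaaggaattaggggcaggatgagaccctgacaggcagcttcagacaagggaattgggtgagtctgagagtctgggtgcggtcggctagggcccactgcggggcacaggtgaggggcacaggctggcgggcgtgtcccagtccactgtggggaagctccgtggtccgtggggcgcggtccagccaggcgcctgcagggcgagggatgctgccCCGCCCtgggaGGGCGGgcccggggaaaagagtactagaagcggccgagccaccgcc
Lgals9, chr11:78984875-78985174, minus strand: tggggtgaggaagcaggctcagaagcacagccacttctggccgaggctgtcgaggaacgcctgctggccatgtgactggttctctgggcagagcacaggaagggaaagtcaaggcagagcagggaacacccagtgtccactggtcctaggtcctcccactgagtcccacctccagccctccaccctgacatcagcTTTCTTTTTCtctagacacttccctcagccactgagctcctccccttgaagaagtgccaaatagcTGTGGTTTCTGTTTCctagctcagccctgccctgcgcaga
The table holds 8 of the 10 members; Lgals1 and Lgals12 are the others. Both strands were searched for a GC box (GGGCGG), an E-box (CACGTG), an AP-1 site (TGANTCA), an interferon-stimulated response element core (GAAA, any 2 bases, then GAAA), a RUNX site (TGTGGT) and a TATA box (TATAAA). Lgals3 held 2 GC boxes, 1 beginning 7 bases before the start and 1 at base 5 after it, a motif found in 35.7% of the 32851 promoters of this length. Lgals9 held 2 matches to the interferon element core, from 55 bases before the start and from base 16 after it, and this motif is found in 3.44% of promoters. Its RUNX match, at base 11, shares 1 base with the second of these, and 16.8% of promoters hold a RUNX match. Lgals8 held 1 RUNX match 27 bases before its start. Among the members not called, Lgalsl held 3 GC boxes and Lgals4 and Lgals7 held 1 each. In the Lgals3bp and Lgals2 windows none of these 6 motifs was found, which says only that their letters are not there. The Lgals3 window held 18 CpG dinucleotides, more than 70.3% of promoters, where the median is 7. Lgalsl had 41, Lgals8 and Lgals2 6 each, Lgals7 5, Lgals9 and Lgals4 4 each, and Lgals3bp 3. A match in these windows describes letters and does not show that a factor binds.

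**Figure D1:**
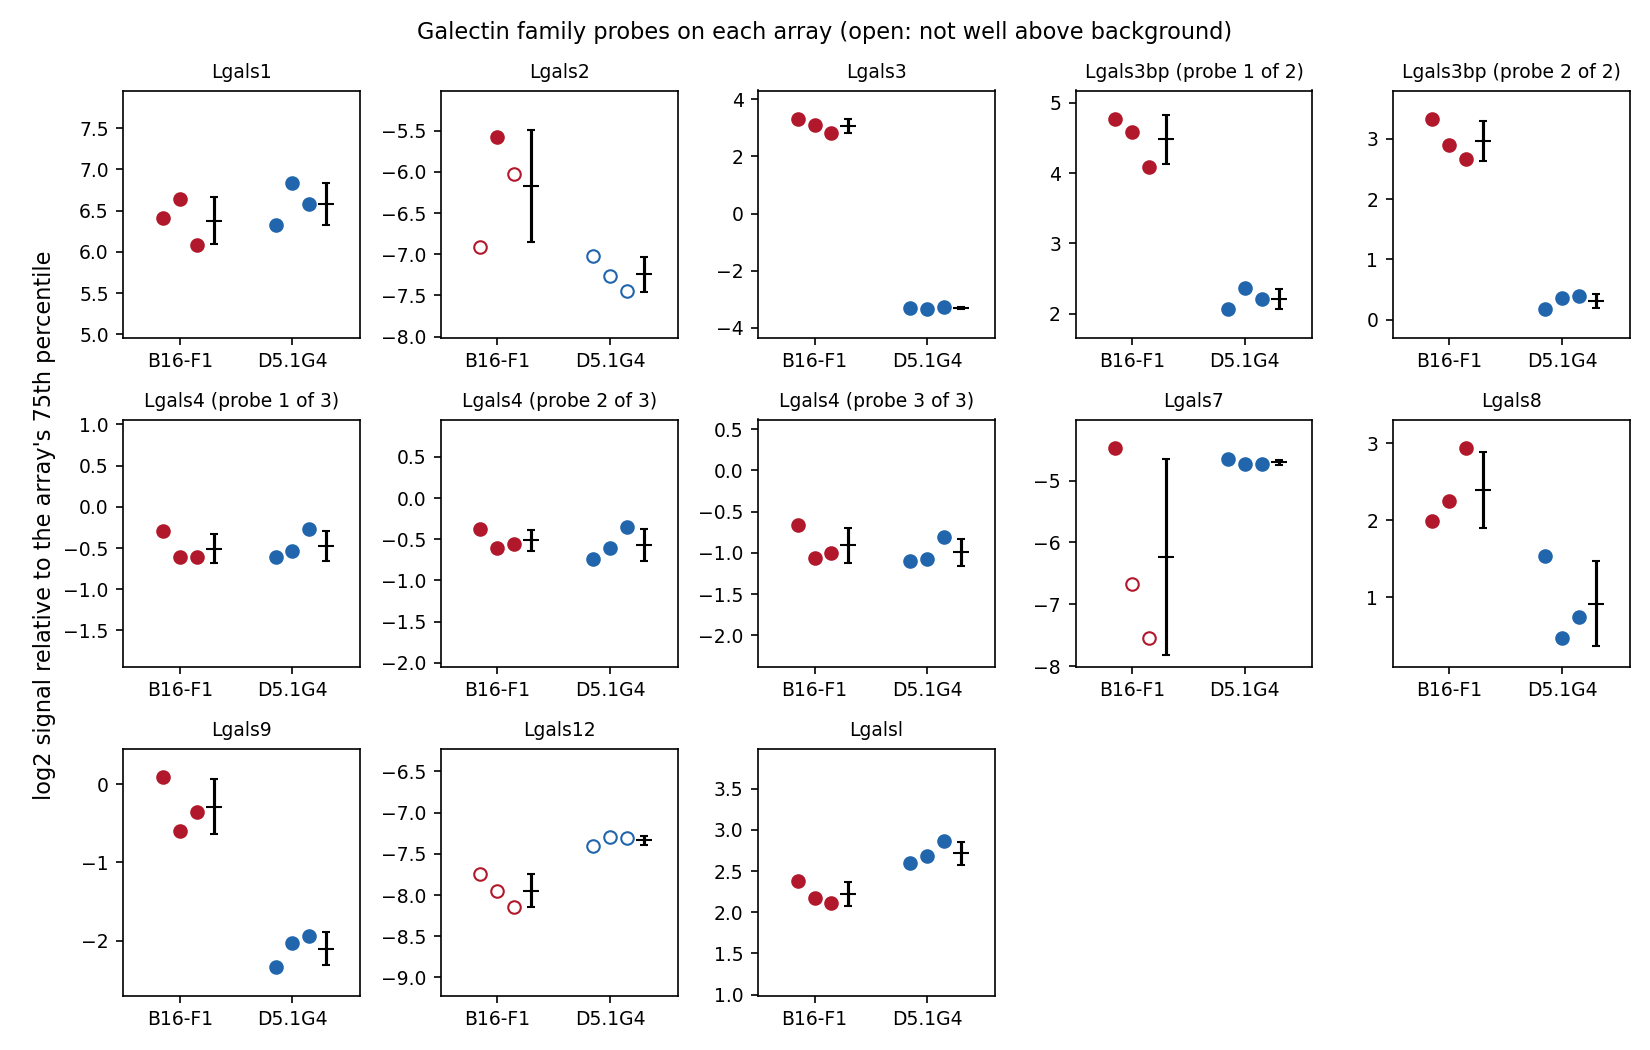
Log2 signal relative to the array's 75th percentile (vertical axis) for all 13 galectin family probes in B16-F1 (red) and D5.1G4 (blue), with replicates 1 to 3 from left to right and the mean ± SD beside them. Filled points are well above background; the vertical range differs between panels. Lgals3 falls from about 3.07 in B16-F1 to -3.31 in D5.1G4, while the 3 Lgals4 probes overlap between the lines.

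Lgals3 encodes galectin-3, the chimera-type galectin, which acts in adhesion, endocytosis and macrophage biology and was first described as the macrophage antigen Mac-2. Its 1 probe gave raw intensities of 14234, 11577 and 14266 on B16-F1 replicates 1, 2 and 3, and of 185, 82.8 and 101 on D5.1G4 replicates 1, 2 and 3. It was well above background on all 6 arrays, so the low line carried a measured signal. Relative to the 75th percentile the B16-F1 arrays gave 3.30, 3.09 and 2.81, and the D5.1G4 arrays gave -3.31, -3.34 and -3.28. The lines did not overlap, and the lowest B16-F1 array lay 6.09 log2 units above the highest D5.1G4 array. The log2 difference was 6.38 (SE 0.15, 95% CI 6.01 to 6.74, adjusted p = 1.29e-05), which is 83.1-fold with a CI of 64.5 to 107-fold. The difference ranked 8 of 18442 features from the highest. Within scan 2 it was 6.61, and with normexp background correction it was 5.50 (adjusted p = 0.00101).

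Because galectin-3 is abundant in macrophages, markers of leukocytes were set beside it. Of 9 markers 8 had a probe, 6 were tested and 1 was called higher, Cd14, a co-receptor for lipopolysaccharide, at least 1.35-fold (adjusted p = 0.0303). Cd14 lost this call in the fits that left out B16-F1 replicate 1 (adjusted p = 0.0595), replicate 2 (0.0881) or replicate 3 (0.0577), with normexp (0.602), with quantile normalization (0.0876) and in the authors' deposited values (0.0843). The macrophage lysozyme gene Lyz2 reached no signal above background in either line, and the leukocyte gene Ptprc was so on 2 B16-F1 and 0 D5.1G4 arrays. The macrophage genes Adgre1, Csf1r and Itgam differed by 0.34, 0.83 and 0.00 log2 units and were not called. Second probes of Csf1r and Itgam differed by 0.69 and -0.74. Of the 8 markers with a probe, 5 were above background on all 3 B16-F1 arrays and 3 on all 3 D5.1G4 arrays. Itgam, Csf1r and the leukocyte marker Cd3e were so on every array, with B16-F1 means of -0.41, -2.78 and -1.96. Itgam had an SD of 0.96 in B16-F1 and 0.82 in D5.1G4. The summed level of the list ran from 1.04 to 2.29 times the 75th percentile in B16-F1 and from 0.971 to 1.90 times in D5.1G4, so the lines overlapped. Of the other markers, 3 of 4 fibroblast genes, 2 of 3 endothelial genes and the epithelial gene Epcam were above background on no array. The endothelial gene Pecam1 and the keratin genes Krt5 and Krt14 were above background on all arrays of both lines and were not called. The part of other cell types in the Lgals3 difference was not tested beyond these values.

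The genes whose 6 array values, each centred on its own mean, lay nearest to those of Lgals3 were Qpct, Ldhd, Cyba, Gpm6b and F11r, among 12069 genes compared. Their root mean square distances were 0.18, 0.20, 0.21, 0.28 and 0.31 log2 units. With 2 lines, such nearness mostly means a similar difference between them. Qpct, which forms pyroglutamate at peptide ends, was the 1 gene among them that was above background in both lines, with a difference of 6.11. Ldhd, a lactate dehydrogenase for the D form, exceeded D5.1G4 by at least 16.1-fold, Cyba, an NADPH oxidase subunit, at least 75.0-fold, the membrane glycoprotein gene Gpm6b at least 12.5-fold and the tight junction gene F11r at least 68.6-fold. These bounds set B16-F1 against the dimmest signal that counts as above background, since D5.1G4 had no such signal. They hold only for the main processing. With normexp the log2 differences of Ldhd, Cyba, Gpm6b and F11r were 3.00, 4.46, 2.74 and 4.55, which is below these bounds.

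Lgals3bp encodes a secreted glycoprotein with a scavenger receptor domain that binds galectin-3, galectin-1 and matrix proteins and is a known interferon-induced gene. It has 2 probes, and both were above background on all arrays. The brighter probe gave 4.77, 4.58 and 4.09 in B16-F1 replicates 1, 2 and 3 and 2.06, 2.36 and 2.21 in D5.1G4. The other probe gave 3.33, 2.90 and 2.66 in B16-F1 and 0.17, 0.36 and 0.39 in D5.1G4. On neither probe did the lines overlap, and the gaps between them were 1.73 and 2.27. The brighter probe differed by 2.27 (SE 0.20, 95% CI 1.78 to 2.76, adjusted p = 0.000593), or 4.83-fold. The other differed by 2.66 (SE 0.19, adjusted p = 0.00028 in the fit over every probe), or 6.31-fold. Within scan 2 the differences were 2.49 and 2.96. The probes detect the same gene in the same RNA and are not replicates.

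Lgals9 encodes galectin-9, a tandem-repeat galectin induced by interferon that binds TIM-3, a receptor found on T cells. Its 1 probe gave 0.09, -0.60 and -0.35 in B16-F1 replicates 1, 2 and 3 and -2.34, -2.03 and -1.94 in D5.1G4. All 6 values were above background, with raw intensities of 898 to 1596 in B16-F1 and 205 to 362 in D5.1G4. Every B16-F1 array lay above every D5.1G4 array, by at least 1.34. The difference was 1.82 (SE 0.21, 95% CI 1.30 to 2.33, adjusted p = 0.00156), or 3.52-fold, and 2.08 within scan 2. Larger positive differences were found in 2.21% of features, and in 1.37% for Lgals3bp.

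Lgals8, the gene of galectin-8, a tandem-repeat galectin that recognises glycans exposed on damaged endosomes and calls autophagy receptors to them, was higher with a wider spread. Its 1 probe gave 1.99, 2.25 and 2.94 in B16-F1 replicates 1, 2 and 3 and 1.53, 0.47 and 0.74 in D5.1G4. The lines did not overlap, but B16-F1 replicate 1 lay only 0.45 above D5.1G4 replicate 1. The SD was 0.49 in B16-F1 and 0.55 in D5.1G4. The difference was 1.48 (SE 0.36, 95% CI 0.61 to 2.34, adjusted p = 0.0219), or 2.78-fold, and 1.38 within scan 2. The call was lost with scan as a block (adjusted p = 0.0525), without both arrays of scan 1 (1.07, 0.197) and without B16-F1 replicate 2 (1.55, 0.0517), B16-F1 replicate 3 (1.20, 0.0602), D5.1G4 replicate 2 (1.25, 0.0688) or D5.1G4 replicate 3 (1.39, 0.0749).

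**Figure D2:**
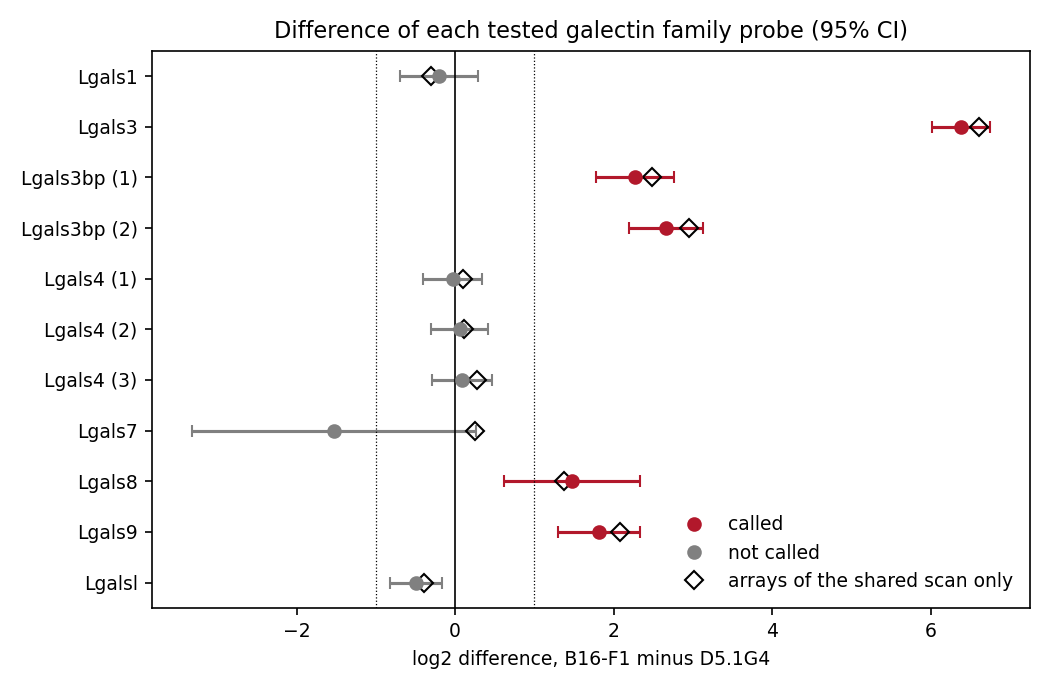
Log2 difference, B16-F1 minus D5.1G4 (horizontal axis), of the 11 galectin family probes tested, from the limma fit over every probe with 95% CI (bars); red probes were called and grey ones were not, open diamonds are the difference within scan 2, and dotted lines mark a 2-fold difference. The Lgals3 interval, 6.01 to 6.74, lies apart from the others, and the Lgals7 diamond (0.25) lies on the other side of 0 from its fitted value (-1.53).

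Lgals1 encodes galectin-1, the prototype galectin that is abundant in melanoma and induces death of activated T cells. Its 1 probe was bright in both lines. It gave 6.41, 6.64 and 6.08 in B16-F1 replicates 1, 2 and 3 and 6.32, 6.84 and 6.58 in D5.1G4, and the lines overlapped. The difference was -0.20 (SE 0.20, 95% CI -0.69 to 0.29, adjusted p = 0.473) and -0.30 within scan 2, and its sign turned with quantile normalization (0.12) and in the authors' deposited values (0.13). The interval leaves out a 2-fold difference in either direction. Raw intensities ran from 93919 to 146782, and no spot was saturated.

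Lgals4, the gene of galectin-4, a tandem-repeat galectin of the gut epithelium, was above background on every array with each of its 3 probes. The brightest probe gave -0.30, -0.61 and -0.60 in B16-F1 replicates 1, 2 and 3 and -0.61, -0.54 and -0.26 in D5.1G4. The other probes ranged from -0.37 to -0.61 and from -0.66 to -1.06 in B16-F1, and from -0.35 to -0.74 and from -0.81 to -1.10 in D5.1G4. The lines overlapped on all 3 probes. The differences were -0.03 (95% CI -0.40 to 0.34, adjusted p = 0.889), 0.06 and 0.09, and within scan 2 they were 0.10, 0.11 and 0.28. Lgals6, a near copy of Lgals4 in some mouse strains, had 0 probes matched, so its share of the Lgals4 signal was not measured.

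Lgalsl encodes a galectin-related protein whose domain has lost residues for binding lactose. Its 1 probe gave 2.38, 2.18 and 2.11 in B16-F1 replicates 1, 2 and 3 and 2.60, 2.68 and 2.87 in D5.1G4. All B16-F1 arrays lay below all D5.1G4 arrays, by 0.22 or more. The difference was -0.49 (SE 0.13, 95% CI -0.82 to -0.17, adjusted p = 0.0315), or 1.41-fold, which is under the minimum fold. Within scan 2 it was -0.40 (adjusted p = 0.177 with scan as a block). By adjusted p alone, which took 34.9% of features, Lgalsl would be called lower and 5 of the 8 tested members would be called. Non-overlap of the lines was found for the same 5 tested members, and for 50.7% of all features measured on every array. Over probes it was found for 6 of the 11 tested member probes, against 51.6% of all probes.

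Lgals7 encodes galectin-7, a prototype galectin of stratified epithelia that p53 induces. Its 1 probe gave -4.47, -6.68 and -7.55 in B16-F1 replicates 1, 2 and 3 and -4.66, -4.73 and -4.73 in D5.1G4. Only replicate 1 of B16-F1 was above background, against all 3 D5.1G4 arrays. That replicate lay above the D5.1G4 arrays, and the other two, which share scan 1, lay well below them. The difference was -1.53 (SE 0.74, 95% CI -3.33 to 0.28, adjusted p = 0.165) over all arrays and 0.25 within scan 2 (adjusted p = 0.664 with scan as a block). With normexp over all arrays it was -0.17 (adjusted p = 0.902), and without B16-F1 replicate 1 it was -2.41 (adjusted p = 0.00269). Within B16-F1, scan 1 minus scan 2 was -2.64, so scan moved with this value, and its part was not tested further.

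Lgals2 and Lgals12 encode galectin-2, known from the stomach and intestine, and galectin-12, known from fat cells. Lgals2 was above background on 1 array, B16-F1 replicate 2 (-5.58), and its other values were -6.92 and -6.03 in B16-F1 and -7.02, -7.26 and -7.45 in D5.1G4. Lgals12 had no signal above background in either line, with values of -8.15 to -7.75 in B16-F1 and -7.40 to -7.29 in D5.1G4. Neither was tested. With no filter on dim probes, neither was called (adjusted p = 0.066 for Lgals2 and 0.0256 with a size under the minimum fold for Lgals12, at -0.61). Raw intensities of Lgals12 ran from 5.35 to 10.9. The lens galectin gene Grifin, which was looked for beside the members, had 1 probe and was above background on 0 arrays.

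By type of protein, the chimera-type gene Lgals3 and 2 of the 3 tested tandem-repeat genes (Lgals8 and Lgals9, not Lgals4) were called higher. Of the 2 tested prototype genes (Lgals1 and Lgals7) 0 were called. Over all features 15.2% were called in either direction. These counts are too small to set the types apart, and the differences between types were not tested. Among the probes, 5 of 11 tested were called higher, where 15.7% of all 22131 probes tested were called in either direction and 7.02% higher.

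**Figure D3:**
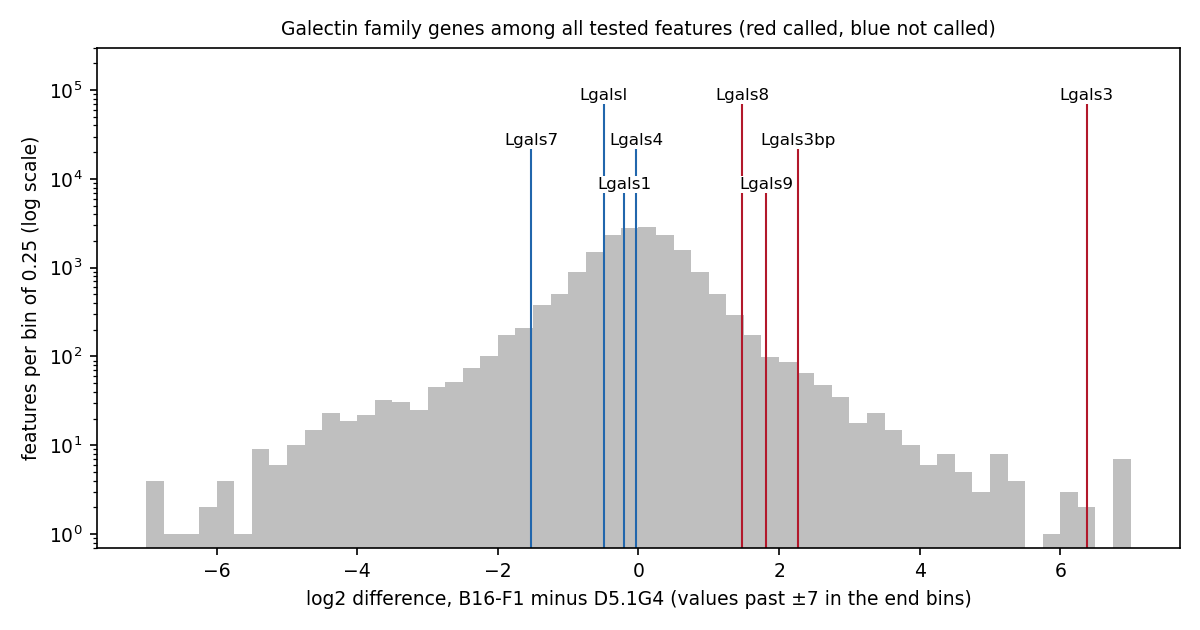
Distribution of the log2 difference, B16-F1 minus D5.1G4 (horizontal axis), over the 18442 tested features, as features per bin of 0.25 on a log scale (grey), with the 8 tested galectin family genes as lines, red where called and blue where not. Lgals3 at 6.38 stands in the sparse right tail and Lgals8, Lgals9 and Lgals3bp between 1.48 and 2.27.

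The members lie on several chromosomes, and the called ones were compared with their neighbours in the gene order of the GRCm38.p6 table, a comparison chosen after the values were seen. Of the 10 tested genes that flank Lgals3 on chromosome 14, 5 on each side, 0 were called, and their differences ran from -0.70 to 0.35. Around Lgals8 on chromosome 13, 0 of 10 were called (-0.92 to 0.49). Around Lgals3bp on chromosome 11, 1 of 10 was called, and it was lower: Timp2, an inhibitor of matrix metalloproteinases (-1.10). Around Lgals9, also on chromosome 11, 1 of 10 was called higher, Lyrm9 (1.28). There 8 of the 10 differences were above 0, with a range of -0.09 to 1.28. Their median was 0.49, against -0.004 over all features. Apart from Lyrm9 and Tmem97 (0.58, adjusted p = 0.00781), these neighbours had adjusted p-values of 0.194 or more. The called shares, 0 or 1 of 10, stand beside 15.2% over all features.

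Galectins act through the glycoproteins and cytosolic proteins they bind. A list of 32 such partners held 28 tested genes, of which 5 were called higher and 5 lower (35.7%, against 15.2% of all features), with a median difference of 0.12. Higher in B16-F1 were Lamb1, a laminin chain (4.35, SE 0.23, adjusted p = 9.79e-05), Itgb1, the integrin beta 1 chain (1.41), Nrp1, a co-receptor for semaphorins and VEGF (1.30), Lamp2, a lysosomal membrane protein (1.14), and Tfrc, the transferrin receptor (1.14). Lower were Spn, a leukocyte sialoglycoprotein and galectin-1 ligand (at least 6.04-fold, not well above background in B16-F1), Pdgfrb, a growth factor receptor (-3.33, SE 0.26, adjusted p = 0.000354), Fn1, fibronectin (-2.10), Havcr2, which encodes the galectin-9 receptor TIM-3 (-1.68, SE 0.17, adjusted p = 0.00102), and the adhesion molecule gene Mcam (-1.09). The adjusted p-values of these 10 genes were 0.0155 or less. Lamp1, Cd44, Slc3a2 and Ctnnb1 (-0.09, -0.19, -0.04 and 0.45) were not called, although a second Cd44 probe gave -1.05, 3 members were not tested and Calcoco2, which binds galectin-8, had no probe matched. Second probes of Lamp2 (0.56), Itgb1 (2.02) and Mcam (-0.61) were not called, and with the mean over a gene's probes Tfrc (0.21, adjusted p = 0.566), Itgb1 (1.72, 0.0758), Lamp2 (0.85) and Mcam (-0.85) lost their calls. With normexp 4 of the 28 were called, beside 1251 of all 18442 features. The calls lost were those of Spn (-1.04, adjusted p = 0.381), Pdgfrb (-1.92, 0.0591), Havcr2 (-1.29, 0.0504), Nrp1 (0.91, 0.173), Itgb1 (1.38, 0.0577) and Lamp2 (0.96). Itgb1 (1.24, adjusted p = 0.117) and Mcam (-0.97, 0.0647) lost their calls with scan as a block, Mcam without B16-F1 replicate 2 (-0.90), Nrp1 without B16-F1 replicate 3 (1.23, adjusted p = 0.0564) or D5.1G4 replicate 1 (1.00). Mcam also fell short of 2-fold with quantile normalization (-0.93) and in the authors' deposited values (-0.93). Of the 21 alternative settings run, Mcam lost its call under 7 and Nrp1 under 4. The Fn1 call rests on 1 D5.1G4 array, assumed to vary like the others. It was lost without the arrays of scan 1 (-1.89, adjusted p = 0.0677) and held with the outlier spots kept (-1.95, adjusted p = 0.000441).

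The enzymes that build and cap N-acetyllactosamine set which glycans galectins can bind. Of 30 such genes 26 were tested, 7 were called higher and 2 lower (34.6%), with a median difference of -0.02. Over all features 15.2% were called, 6.28% as higher and 8.89% as lower. Higher in B16-F1 were the sialyltransferases St6gal1, whose alpha-2,6 cap is known to block galectin-1 binding (2.92, SE 0.21, adjusted p = 0.000291), and St3gal4 (2.09). So were C1galt1c1, the chaperone of the core 1 O-glycan enzyme (1.59), the branching enzyme genes Gcnt1 (1.33) and Gcnt2 (at least 2.14-fold), the galactosyltransferase gene B4galt2 (1.14) and the mannosidase gene Man2a1 (1.00). B3gnt3, which extends core 1 O-glycans (-2.15, SE 0.13, adjusted p = 0.000174), and the sialyltransferase gene St3gal1 (-1.24) were lower. The N-glycan branching genes Mgat1, Mgat2, Mgat4a and Mgat4b differed by -0.18, 0.90, -0.56 and 0.27 and were not called. Of these, Mgat2 (adjusted p = 0.00423) and Mgat4a (0.0157) passed the adjusted p and fell short of the minimum fold. Mgat5, which makes the branch galectin-3 favours, had no signal above background in either line. With normexp 5 of the 26 were called, beside 1251 of all 18442 features. The calls lost were those of B3gnt3 (-0.84, adjusted p = 0.382), Gcnt2 (0.81, 0.317), B4galt2 (0.86, 0.0914) and Gcnt1 (1.11, 0.054). With the mean over a gene's probes Gcnt2 (0.57, adjusted p = 0.146) and Gcnt1 (0.99, 0.204) lost theirs. The Gcnt1 call rests on 2 B16-F1 arrays and held with the outlier spots kept (1.34, adjusted p = 0.00316). B4galt2 lost its call with scan as a block (adjusted p = 0.151), and also when B16-F1 replicate 2 (adjusted p = 0.0581), B16-F1 replicate 3 (0.0502) or D5.1G4 replicate 2 (difference 0.88) was left out. Man2a1 fell short of 2-fold when B16-F1 replicate 1 (0.94), B16-F1 replicate 3 (0.99) or D5.1G4 replicate 3 (0.92) was left out, and Gcnt1 lost its call without B16-F1 replicate 2 (adjusted p = 0.0555). St3gal4 lost its call under 1 of the 21 alternative settings, without the arrays of scan 1 (difference 2.02).

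**Figure D4:**
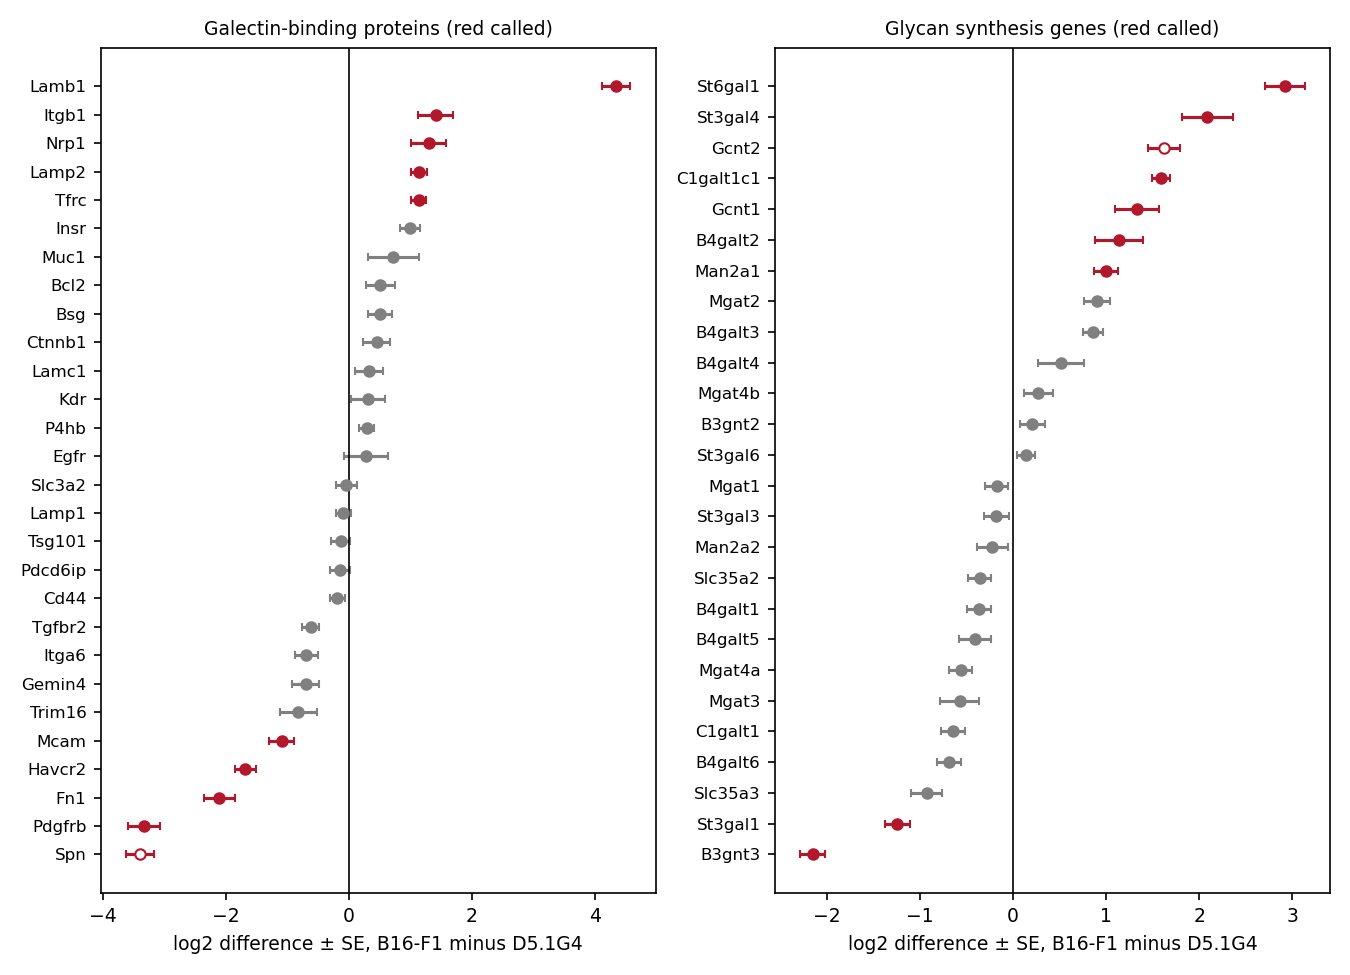
Log2 difference ± SE, B16-F1 minus D5.1G4 (horizontal axis), of the 28 tested galectin-binding protein genes (left) and the 26 tested glycan synthesis genes (right), sorted by difference; red genes were called, and open points had no signal above background in 1 line. Lamb1 (4.35) and St6gal1 (2.92) have the highest values of their lists.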

How the data were processed

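The deposited files hold the scanner intensity of each spot on a linear scale, background-subtracted and detrended within the array with Agilent Feature Extraction 11.0.1.1, per the file headers. The authors' deposited value table holds log2 values for 22147 probes; its normalization is not stated by the labels or headers. Its columns correlated at 0.999 or more with their own arrays. Each processed intensity was put on the log2 scale, less its array's 75th percentile; non-uniform and outlier spots were left out, and no member's spot was among them. Accessions matched 69.1% of 39429 probes to a RefSeq gene (GRCm38.p6). The probe with the highest mean stood for a gene. Features above background on at least 3 of 6 arrays were tested with limma 3.58.1 in R 4.3.3 (lmFit, eBayes, line as the only term, 2-sided, Benjamini-Hochberg over all features), and again over every probe; the fit was tested on simulated data. Normexp (offset 50) had been planned on mean signals and used the median signals, which the deposited data hold, instead. The labels do not say whether replicates were separate cultures, so p-values measure only how these arrays spread, and that spread may be technical; 3 arrays a line limit the precision. The members and lists were chosen with earlier results of these data known. All members and all called list genes are named by rule; other list genes are examples, chosen after their values were seen.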

Additional observations from a re-analysis of the deposited data

How the results depend on the processing

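Lgals3, Lgals3bp and Lgals9 kept their direction and call under all 21 alternatives run, with ranges of 5.50 to 6.61, 2.13 to 2.56 and 1.55 to 2.20. Lgals8 kept its direction (1.07 to 1.78) and lost its call under 7 of the 21. The 21 are not independent checks. Using unadjusted p, or no minimum fold, relaxes the rule on the same fit and could not remove a call. Scan as a block and within scan 2 give these genes the same difference. Between 3 and 5 galectin genes and 4 and 6 galectin probes were called when 1 array was left out, 9 to 13 partner genes and 7 to 9 glycan genes. In these fits 2530 to 3375 of all features were called, of 18319 to 18442 tested. With the replicate block, 3 galectin genes, 4 galectin probes, 9 partner genes and 7 glycan genes were called, beside 2580 of 18442 features. Lgals8, Fn1, B4galt2, Gcnt1 and Cd14 lost their calls in that fit (adjusted p = 0.0695, 0.0799, 0.06, 0.0729 and 0.0656). Deviations of same-numbered arrays from the means of their lines correlated at -0.38, -0.03 and -0.31. No same-numbered arrays share a scan, so these values cannot show whether the numbers pair the arrays. With normexp 4 partner and 5 glycan genes were called, and 1251 of all features in place of 2799. With no minimum fold 15 of the 26 tested glycan genes were called, beside 6434 of 18442 features (34.9%). Lgals1 turned sign with quantile normalization (0.12) and the authors' values (0.13). Lgals4 turned sign with the mean over its probes (0.038), with scan as a block and within scan 2 (0.10 in both), without both arrays of scan 1 (0.17) and among the fits that left out 1 array (-0.14 to 0.072). Lgals7 turned sign with scan as a block and within scan 2 (0.25 in both) and without the arrays of scan 1 (0.23), and ranged from -2.41 to -0.87 when 1 array was left out. The cause was not tested. Leaving out the arrays of scan 1, and dropping the minimum fold, were chosen after seeing the data. Dim signal limits Lgals2, Lgals7 and Lgals12.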
